A study of Mus musculus with 8 samples.

Results

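The MAP kinase phosphatases are 10 genes of the mouse, Dusp1, Dusp2, Dusp4, Dusp5, Dusp6, Dusp7, Dusp8, Dusp9, Dusp10 and Dusp16. They were taken from 22180 genes measured on 8 microarrays by gene symbol, and where a gene had several probe sets the brightest over all 8 arrays stood for it. All 10 were measured. In primary articular chondrocytes infected with an adenovirus that carries the zinc transporter ZIP8 (Ad-Zip8, 4 arrays), set against cells infected with the empty control virus (Ad-null, 4 arrays), Dusp6, Dusp5 and Dusp4 rose and Dusp8 fell. Dusp6 was 2.43-fold higher and Dusp8 1.63-fold lower. The other 6 did not pass the test, among them Dusp1, which differed by a factor of 1.03.

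The cells of both groups came from wild-type ICR mice 5 days old, from the cartilage of the femoral condyles and tibial plateaus, and were grown as a monolayer in medium with serum. RNA was taken 24 h after infection in both groups, so every array carries an adenoviral infection, and uninfected cells were not analysed here. The labels call the arrays biological replicates but do not say whether cultures came from separate animals or from pools, so the p-values cover the spread between cultures as sampled here, which may be partly technical.

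MAP kinases (ERK, JNK and p38) pass signals from growth factors, cytokines and stress to the nucleus, and each is switched on by phosphate on a threonine and a tyrosine of its activation loop. Dual-specificity MAP kinase phosphatases remove both phosphates and so switch the kinases off. Several are themselves induced by the kinases they act on, which closes a negative feedback loop. In cartilage, p38, JNK and ERK act downstream of inflammatory cytokines on matrix-degrading enzymes, and ERK acts downstream of fibroblast growth factor receptors.

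Slc39a8, the gene of ZIP8, had log2 values of 11.16, 10.90, 11.24 and 11.20 on the Ad-Zip8 arrays, against 6.25, 6.27, 6.12 and 6.15 on the Ad-null arrays, a log2 change of 4.93 with a standard error (SE) of 0.09 (limma adjusted p = 3.49e-09). Correlations over all genes ran from 0.9909 to 0.9935 within a group and from 0.9788 to 0.9863 between groups. Of 14 chondrocyte markers 12 were lower in Ad-Zip8 cells, such as Acan (log2 change -0.54) and Matn1 (-1.14), while Col2a1 (-0.22) and Sox9 (-0.19) did not pass. None was higher (none also at an unadjusted p under 0.05). Their mean level per array was 11.37 to 11.66 in Ad-Zip8 cells, against 12.08 to 12.15 in Ad-null cells. The medians of whole arrays lay between 5.043 and 5.109. Of 9 macrophage markers 1 rose (Cd68), with a mean level of 4.62 to 4.68 in Ad-Zip8 cells, against 4.51 to 4.65 in Ad-null cells. None of 6 lymphocyte markers passed the test, at 4.29 to 4.57 in Ad-Zip8 cells and 4.38 to 4.53 in Ad-null cells, and none of 6 endothelial markers did, at 4.62 to 4.72 and 4.53 to 4.70 in the same order of groups. Neither list held a gene with an unadjusted p under 0.05. Of 5 adipocyte markers 2 rose, Fabp4 by 2.78 and Adipoq by 0.34 on the log2 scale, and the other 3 did not pass, with values from -0.25 (Cidec) to 0.24 (Plin1). The list's mean level was 5.10 to 5.25 in Ad-Zip8 cells and 4.28 to 4.77 in Ad-null cells. Fibroblast markers gave 1 higher and 1 lower of 8, osteoblast markers 1 and 1 of 6, and skeletal muscle markers 1 lower of 8. In RNA from whole cultures, fewer cells of a type and less RNA per cell cannot be told apart, and the part of these markers in the phosphatase values was not tested.

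Over the 22180 genes, 10.6% were called at an adjusted p under 0.05 (limma, Benjamini-Hochberg over all genes), 5.48% higher and 5.12% lower. Of the 10 phosphatase genes 4 were called, 3 higher and 1 lower. Their median log2 change was 0.07, against -0.02 over all genes, and the median size of the change, without its sign, was 0.34, against 0.12. The groups did not overlap for 5 of the 10, with 4 higher and 1 lower. Of all genes, 17.6% had groups that did not overlap, 7.89% higher and 9.74% lower. The genes moved in both directions, so the median says little about any one of them.

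**Figure D1:**
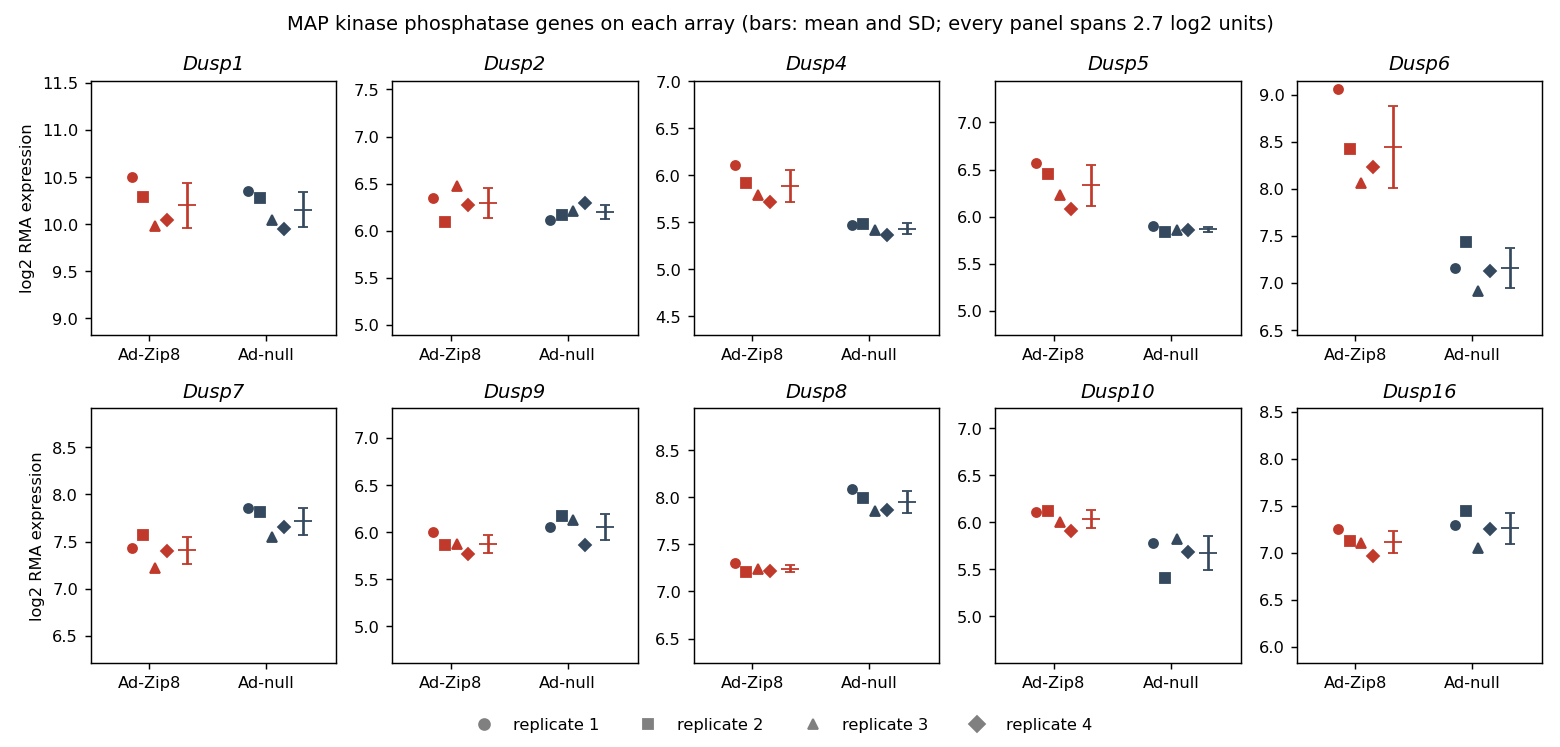
Log2 RMA expression of the 10 MAP kinase phosphatase genes on each array, Ad-Zip8 left of Ad-null in every panel, with marker shapes for replicate numbers and bars for the mean and SD of 4 arrays. Every panel spans the same number of log2 units, so distances can be compared between panels while levels cannot. Dusp4, Dusp5, Dusp6 and Dusp10 lie above and Dusp8 below the Ad-null arrays without overlap.

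The cytoplasmic, ERK-selective class holds Dusp6, Dusp7 and Dusp9, and it contained the largest rise of the family. Dusp6 dephosphorylates ERK in the cytoplasm, and in developing limbs and other tissues its transcript follows fibroblast growth factor signalling through ERK. Its log2 values were 9.06, 8.42, 8.06 and 8.23 in Ad-Zip8 cells, against 7.16, 7.43, 6.92 and 7.13 in Ad-null cells. Every Ad-Zip8 array lay above every Ad-null array, and the lowest Ad-Zip8 value exceeded the highest Ad-null value by more than the SD of either group. The means were 8.44 ± 0.44 and 7.16 ± 0.21 (SD, n = 4 arrays each, Ad-Zip8 first), a log2 change of 1.28 (SE 0.20, 95% interval 0.83 to 1.72, adjusted p = 0.00259). Of all genes, 0.663% rose by as much or more. Dusp6 was the single member with 2 probe sets. The dimmer one had log2 values of 3.88, 4.20, 3.90 and 4.08 in Ad-Zip8 cells, against 4.10, 3.95, 3.48 and 4.09 in Ad-null cells, below the array medians, with a change of 0.11 (SE 0.14, adjusted p = 0.727 over all probe sets with a symbol). The 2 probe sets thus disagreed, and the mean over both gave a change of 0.69 (adjusted p = 0.0085).

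Dusp7, a close relative that also acts on ERK in the cytoplasm, had log2 values of 7.43, 7.57, 7.22 and 7.40 in Ad-Zip8 cells, against 7.86, 7.81, 7.55 and 7.65 in Ad-null cells. A single pair of values crossed, Ad-Zip8 replicate 2 and Ad-null replicate 3. The change of -0.31 (SE 0.10, 95% interval -0.54 to -0.09) did not pass (adjusted p = 0.0836). With the replicate number as a block it passed (adjusted p = 0.0357). Dusp9, an ERK-selective phosphatase best known from placenta, ranged from 5.77 to 6.00 in Ad-Zip8 cells and from 5.86 to 6.17 in Ad-null cells. Its groups overlapped, with a change of -0.17 (95% interval -0.37 to 0.02, adjusted p = 0.29).

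The inducible nuclear class holds Dusp1, Dusp2, Dusp4 and Dusp5, early-response genes whose products act in the nucleus. Dusp4, which acts on ERK and JNK, had log2 values of 6.11, 5.92, 5.79 and 5.72 in Ad-Zip8 cells, against 5.47, 5.48, 5.42 and 5.36 in Ad-null cells. Dusp5, which dephosphorylates ERK and holds it in the nucleus, had log2 values of 6.57, 6.45, 6.23 and 6.08 in Ad-Zip8 cells, against 5.90, 5.84, 5.86 and 5.86 in Ad-null cells. In both genes the groups were separate and the Ad-Zip8 arrays were the more scattered, with SDs of 0.17 for Dusp4 and 0.22 for Dusp5, against 0.05 and 0.03 in Ad-null cells. Dusp4 rose 1.37-fold (log2 change 0.45, SE 0.09, 95% interval 0.24 to 0.66, adjusted p = 0.0121). Dusp5 rose 1.38-fold (0.47, SE 0.10, 95% interval 0.23 to 0.70, adjusted p = 0.0187). Both read at modest levels, with means over the 8 arrays of 5.66 for Dusp4 and 6.10 for Dusp5. The median over all genes was 5.637, and no detection calls were available. The Dusp5 call was lost without Ad-null replicate 2 (adjusted p = 0.0503), without Ad-Zip8 replicate 2 (0.0548), and when all probe sets of the array were tested (0.0552).

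Dusp1 acts on p38, JNK and ERK and is induced by stress, cytokines and glucocorticoids. Its log2 values were 10.50, 10.29, 9.98 and 10.04 in Ad-Zip8 cells, against 10.35, 10.28, 10.04 and 9.95 in Ad-null cells. The groups overlapped over almost their whole range, and the change was 0.05 (SE 0.13, adjusted p = 0.88), with a 95% interval from -0.25 to 0.35. That interval leaves out a change as large as that of Dusp6. Dusp2, best known from activated lymphocytes, had 6.35, 6.09, 6.47 and 6.27 in Ad-Zip8 cells, against 6.11, 6.17, 6.21 and 6.29 in Ad-null cells, on the log2 scale. Its groups overlapped too, with a change of 0.10 (95% interval -0.10 to 0.30, adjusted p = 0.594).

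The JNK- and p38-selective class holds Dusp8, Dusp10 and Dusp16, of which Dusp8 fell and the others did not pass. Dusp8 had log2 values of 7.30, 7.21, 7.24 and 7.22 in Ad-Zip8 cells, against 8.09, 7.99, 7.85 and 7.86 in Ad-null cells. The Ad-Zip8 arrays lay within 0.1 log2 units of each other and all below the Ad-null arrays. The means were 7.24 ± 0.04 and 7.95 ± 0.12 (SD, n = 4 arrays each, Ad-Zip8 first), a log2 change of -0.71 (SE 0.08, 95% interval -0.88 to -0.53, adjusted p = 0.000299). That was the smallest adjusted p of the family, and 0.983% of all genes fell by as much or more.

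Dusp10, which acts on JNK and p38, had log2 values of 6.11, 6.12, 6.00 and 5.91 in Ad-Zip8 cells, against 5.78, 5.41, 5.82 and 5.68 in Ad-null cells. The groups were separate, but the change of 0.36 (SE 0.10, 95% interval 0.13 to 0.59) missed the threshold (adjusted p = 0.0513). Of the 8 fits without 1 array it passed in 1, that without Ad-null replicate 3 (adjusted p = 0.0489), with values up to 0.131 in the others. Dusp16, which also acts on JNK and p38, had 7.25, 7.13, 7.10 and 6.97 in Ad-Zip8 cells, against 7.30, 7.44, 7.05 and 7.25 in Ad-null cells, on the log2 scale. These groups overlapped, with a change of -0.15 (95% interval -0.37 to 0.07, adjusted p = 0.431).

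**Figure D2:**
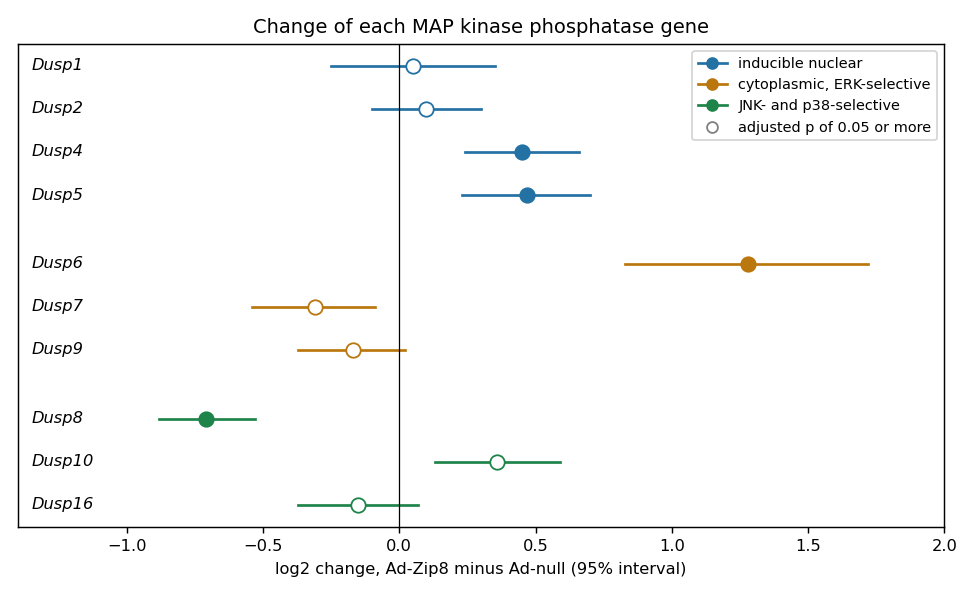
Log2 change of each gene, Ad-Zip8 minus Ad-null, with its 95% interval from limma, coloured by class, filled where the adjusted p was under 0.05. Dusp6 at 1.28 and Dusp8 at -0.71 lie farthest from 0, and the interval of Dusp1 (-0.25 to 0.35) spans 0.

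Within the Ad-Zip8 group, replicate 1 held the highest value for 7 of the 10 genes (Dusp1, Dusp4, Dusp5, Dusp6, Dusp8, Dusp9 and Dusp16) and the lowest for 0. Replicate 4 held the lowest for 5 of the 10. Slc39a8 was at 11.16 in replicate 1, between 10.90 in replicate 2 and 11.24 in replicate 3, with an SD of 0.15 over the 4 arrays. A relation between the Slc39a8 level and the phosphatase values was not tested. In the Ad-null group replicates 1 and 2 held the highest value for 4 genes each. The share of all genes with their highest value on each array was not counted. These counts therefore cannot be told apart from a shift of whole arrays. Without Ad-Zip8 replicate 1 the Dusp6 change was 1.07 (adjusted p = 0.00157), the Dusp4 change 0.37 (0.024) and the Dusp5 change 0.39 (0.0447).

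Whether relatives changed by unequal amounts was tested within classes, on the log2 difference between both genes on each array, with an exact two-sided permutation test over the 70 regroupings of 8 arrays. The smallest p this design allows is 0.0286. Of 12 pairs, 7 reached it, each with an adjusted p of 0.049 over the 12. With 4 arrays in each group this p is reached only where the groups do not overlap, so their separation is the same result. The 7 pairs hold the same p, so they pass the adjustment together, and pairs that share a gene are not independent. The test over regroupings does not use a pairing of arrays by number, which the labels do not state. An exact sign-flip permutation test of the 4 same-numbered pairs, which cannot go below p = 0.125, ended all 7 calls (adjusted p = 0.167 each). Dusp6 exceeded Dusp7 by 1.59 and Dusp9 by 1.45 in log2 change. Dusp10 exceeded Dusp8 by 1.07 and Dusp16 by 0.51, and Dusp16 exceeded Dusp8 by 0.56. Among the nuclear members, the change of Dusp5 exceeded that of Dusp1 by 0.42 and that of Dusp4 exceeded it by 0.40. The other 5 pairs did not pass. Dusp5 and Dusp4 differed by 0.02 (adjusted p = 0.717), Dusp2 and Dusp1 by 0.05 (0.8) and Dusp9 and Dusp7 by 0.14 (0.309), while Dusp5 and Dusp4 exceeded Dusp2 by 0.37 and 0.35 (0.0762 each). These differences are between changes and say nothing of which transcript is the more abundant.

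RefSeq promoter windows on the GRCm38.p6 build matched 8 of the 10 genes, and the 250 bases before the start that the table uses were searched on both strands. For Dusp7, Dusp8 and Dusp16 that start is not the outer end of the annotated gene, and the Dusp8 window lies inside the gene's annotated span. The windows of Dusp6, which rose most, Dusp8, which fell, and Dusp1, which did not pass, are shown, each read 5′ to 3′ on its gene's strand. Capitals mark matches to the motifs named in the next paragraph. Dusp6 lies at chr10:99262981-99263230 on the plus strand, Dusp8 at chr7:142095285-142095534 on the minus strand and Dusp1 at chr17:26508473-26508722 on the minus strand.
Dusp6: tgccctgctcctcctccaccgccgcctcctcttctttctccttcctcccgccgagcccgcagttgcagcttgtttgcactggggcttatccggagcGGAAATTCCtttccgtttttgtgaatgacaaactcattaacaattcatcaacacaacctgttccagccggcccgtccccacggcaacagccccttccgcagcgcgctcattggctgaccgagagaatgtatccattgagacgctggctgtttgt
Dusp8: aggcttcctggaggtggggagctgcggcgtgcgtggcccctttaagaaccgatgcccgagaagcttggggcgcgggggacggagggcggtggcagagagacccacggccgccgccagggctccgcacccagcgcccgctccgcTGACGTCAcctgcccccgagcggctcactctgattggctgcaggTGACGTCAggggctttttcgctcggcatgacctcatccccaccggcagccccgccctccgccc
Dusp1: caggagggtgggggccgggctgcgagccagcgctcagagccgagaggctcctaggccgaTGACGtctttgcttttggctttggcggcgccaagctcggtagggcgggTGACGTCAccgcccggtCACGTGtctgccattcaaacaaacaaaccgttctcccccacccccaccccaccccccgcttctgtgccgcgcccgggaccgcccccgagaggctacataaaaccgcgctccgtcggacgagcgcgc

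The 8 windows held 56.4% to 77.2% G and C, against a median of 52.4% over all windows. The shares of motifs below were not adjusted for this. The cAMP response element TGACGTCA occurred in 1.55% of 32851 windows of that length. Counted back from these starts, the Dusp8 window held it at bases -107 to -100 and again at -63 to -56, and the Dusp1 window at -143 to -136. Its core TGACG, which overlaps it, was in 17.8% of windows and in those of Dusp1, Dusp5, Dusp8 and Dusp16. The NF-kB motif GGANTTTCC was in 1.07% of windows and, on the reverse strand, in that of Dusp6 at -154 to -146. The E-box CACGTG was in 6.02% of windows, among them Dusp1 at -126 to -121 and Dusp2. None of the 8 windows held the AP-1 motif TGANTCA (6.75% of all windows), either form of the metal response element, TGCACNC (10.4%) or TGCGCNC (12.5%), the Ets core CCGGAAG (6.91%), the heat shock core TTCNNGAA (7.17%), the hypoxia motif TACGTG (2.72%) or the TATA box TATAAA (12.4%). A match describes letters in these windows, and no binding was measured. A relation between these matches and the changes of the genes was not tested.

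The genes with the array pattern most like Dusp6 and Dusp8 were found by the root mean square difference over the 8 arrays, after each gene's Ad-null mean was subtracted, among 18273 named genes. For Dusp6 they were Gdpd1 (0.12 log2 units apart, 2.36-fold higher), Cd14 (0.16, 2.63-fold higher) and Arg2 (0.16, 2.68-fold higher). Gdpd1 encodes a glycerophosphodiester phosphodiesterase, Cd14 a co-receptor for lipopolysaccharide and Arg2 the mitochondrial arginase. All 3 were picked for likeness to Dusp6 on these same arrays, so a shared peak follows largely from the choice. Like Dusp6, they had their highest value in Ad-Zip8 replicate 1, at 7.55 for Gdpd1, 7.18 for Cd14 and 7.34 for Arg2 on the log2 scale. For Dusp8 they were Disp1 (0.05 apart, 1.58-fold lower), needed for the release of hedgehog ligands, Laptm5 (0.07, 1.65-fold lower), a lysosomal membrane protein gene of blood cells, and Slc1a4 (0.07, 1.6-fold lower), a neutral amino acid transporter gene.

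Some transcripts of genes that ERK signalling is known to induce rose beside Dusp4, Dusp5 and Dusp6. Kinase activity was not measured on these arrays, and a part of ERK in any of these rises was not tested. Of 24 measured ERK feedback and output genes 11 rose and none fell, and 13 did not pass, where 5.48% of all genes rose. The list's median log2 change was 0.35, against -0.02 over all genes. By limma, 1 of its genes was lower and 14 higher at an unadjusted p under 0.05. Phlda1, induced early by growth factors, was 1.88-fold higher, with an adjusted p of 0.000185 and a log2 change of 0.91 (SE 0.09). Ier3, an early gene whose product binds ERK, rose 2.59-fold, the transcription factor gene Egr1 1.88-fold, and Etv5, an Ets factor gene downstream of fibroblast growth factors, 2.20-fold. Etv5 had several probe sets, and the mean over them gave 0.74 in place of 1.14. The other 7 that rose ran from 0.39 (Spred1) to 0.85 (Fos) in log2 change. Among the ERK pathway antagonists, which were singled out after their values were seen, Spry2 (0.63), Spred1 and Spred2 (0.73) rose and Errfi1, an inhibitor of the epidermal growth factor receptor, rose by 0.60 on the log2 scale. Spry1 (-0.03), Spry3 (0.06), Spry4 (0.31), Spred3 (0.56) and Il17rd (0.08) did not pass.

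**Figure D3:**
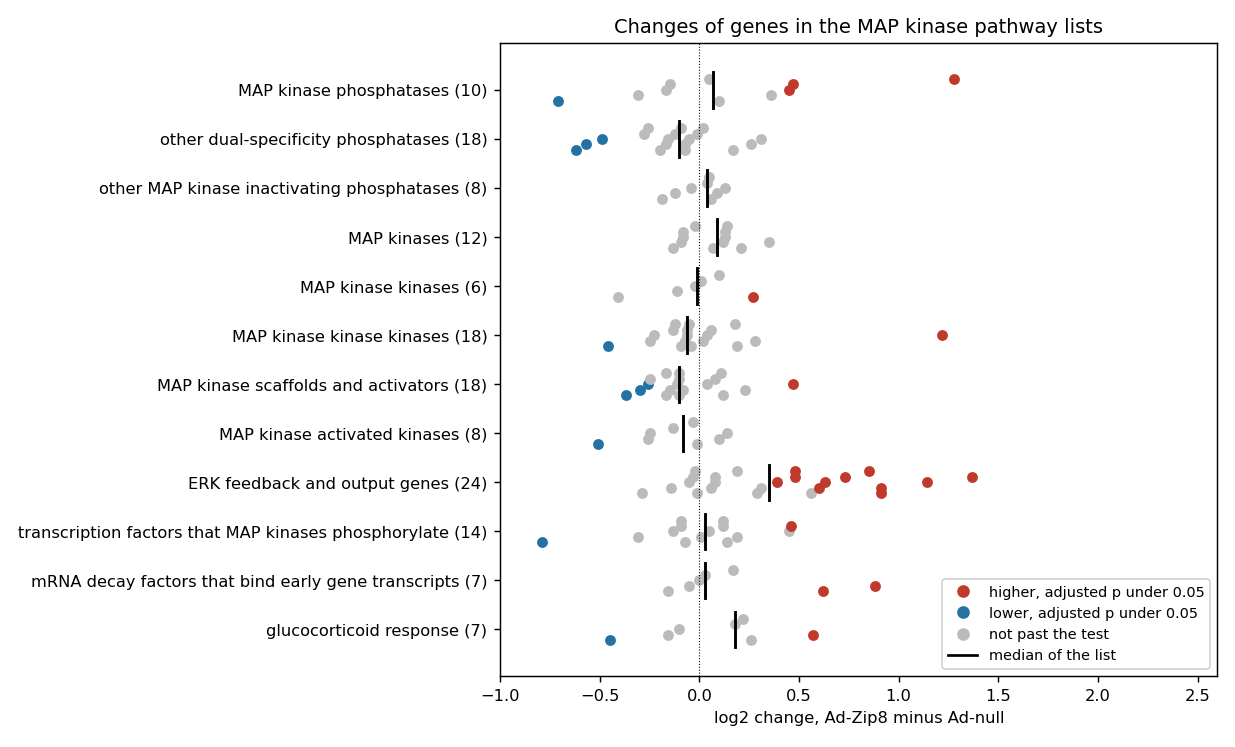
Log2 change, Ad-Zip8 minus Ad-null, of every measured gene in 12 lists, with the number of genes in brackets. Red points rose and blue points fell at an adjusted p under 0.05, grey points did not pass, and black bars are list medians. The ERK feedback and output list has its median at 0.35, and no MAP kinase passed.

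Among the kinases that the phosphatases act on, none of 12 MAP kinase genes passed the limma test, with changes from -0.13 to 0.35, and 2 were higher at an unadjusted p under 0.05. Of 6 MAP kinase kinase genes Map2k1, which activates ERK, rose 1.21-fold (log2 change 0.27, adjusted p = 0.0406), a call lost in 7 of the 8 fits without 1 array, all but that without Ad-null replicate 1, and with the replicate block (adjusted p = 0.0792). Of 18 MAP kinase kinase kinase genes 1 rose and 1 fell. Map3k8, a kinase upstream of ERK in inflammatory signalling, had log2 values of 7.00, 6.84, 7.07 and 6.82 in Ad-Zip8 cells, against 5.81, 5.56, 5.60 and 5.87 in Ad-null cells. The groups were far apart relative to their spread, with a 2.33-fold rise (log2 change 1.22, SE 0.10, adjusted p = 5.25e-05). Araf, a Raf kinase gene upstream of ERK, was 1.37-fold lower (adjusted p = 0.00599).

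Among 18 scaffold and activator genes 1 rose and 3 fell. The adaptor gene Shc1 rose 1.39-fold, Gadd45g, which activates kinases upstream of JNK and p38, was 1.29-fold lower, Tab2, a subunit of the TAK1 kinase complex, 1.23-fold lower and the JNK scaffold gene Spag9 1.2-fold lower. All 4 calls were lost in at least 1 fit without an array. Gadd45g and Shc1 lost theirs without Ad-null replicate 4 (adjusted p = 0.05 and 0.0506), and Tab2 in 4 fits, those that left out array 2 or 3 of the Ad-null group or array 1 or 4 of the Ad-Zip8 group (up to 0.0674). Spag9 kept its call in a single fit, that without Ad-null replicate 2, and lost it with the replicate block (0.0535). Of 8 kinase genes that MAP kinases activate, Mknk1 was 1.42-fold lower (adjusted p = 0.00468) and none rose, also at an unadjusted p under 0.05.

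Of 18 other dual-specificity phosphatase genes none rose (limma, 1 at an unadjusted p under 0.05) and 3 fell, where 5.12% of all genes fell. Dusp12 had log2 values of 6.92, 7.08, 7.05 and 7.12 in Ad-Zip8 cells, against 7.61, 7.48, 7.55 and 7.48 in Ad-null cells, and fell by 0.49 (SE 0.07, adjusted p = 0.00215). Dusp15 fell by 0.62 (adjusted p = 0.0213), a call lost in 3 fits, those that left out array 1 or 3 of the Ad-Zip8 group or array 2 of the Ad-null group (up to 0.0618). Dusp14, which acts on the kinase TAK1, fell by 0.57 (adjusted p = 0.0481), and this call was lost in all 8 fits without 1 array (up to 0.106) and with the replicate block (0.122). None of 8 genes of tyrosine and serine/threonine phosphatases that inactivate MAP kinases passed the limma test, also at an unadjusted p under 0.05, with changes from -0.19 to 0.13.

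Of 14 genes of transcription factors that MAP kinases phosphorylate, Elk3 rose 1.37-fold (adjusted p = 0.00211) and Mef2c, a target of p38 that also drives chondrocyte hypertrophy, had a log2 change of -0.79 (SE 0.10), a 1.72-fold fall (adjusted p = 0.000762). The mean over the probe sets of Mef2c gave -0.44. Of 7 genes of mRNA-binding factors Zfp36l1 rose 1.84-fold and Zfp36l2 1.54-fold, with adjusted p-values of 0.000752 and 0.00294. Such factors bind AU-rich elements of early gene transcripts, and none of the 7 was lower by limma. At an unadjusted p under 0.05, 1 was lower, Elavl1, with a log2 change of -0.16. Of 7 glucocorticoid response genes, a list chosen because glucocorticoids induce Dusp1, Sgk1 rose 1.49-fold (adjusted p = 0.000949). Tsc22d3 was 1.37-fold lower (adjusted p = 0.027), a call lost in 4 fits, those that left out array 1 or 4 of the Ad-Zip8 group or array 1 or 2 of the Ad-null group (up to 0.0807).

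**Figure D4:**
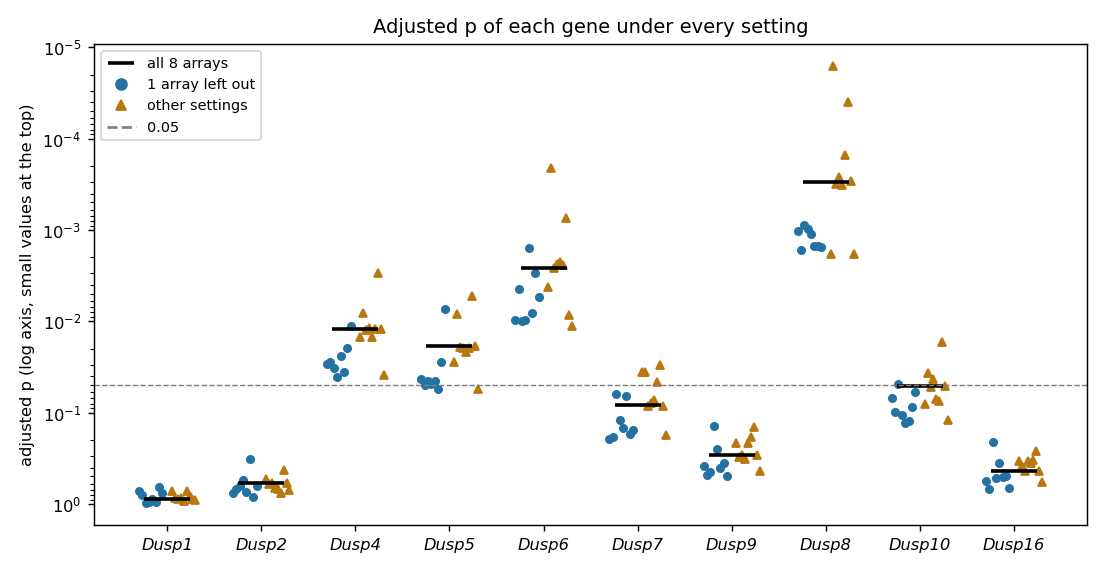
Adjusted p of each MAP kinase phosphatase gene (log axis, small values at the top), with the value of all 8 arrays as a bar, the 8 fits without 1 array as circles and 9 other settings as triangles. Dusp4, Dusp6 and Dusp8 stay above the dashed line at 0.05 in every fit shown, Dusp5, Dusp7 and Dusp10 lie on both sides of it, and Dusp1, Dusp2, Dusp9 and Dusp16 stay below it.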

How the data were processed

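Total RNA from 8 cultures was labelled with biotin for a whole-transcript array, per the labels' protocols. The authors deposited log2 values, 1 per probe set and array. The submitters' processing notes name RMA, a method that subtracts background, aligns the arrays' distributions and summarises probes. The sources used here give no version, genome build or filter. Values ran from 0.85 to 13.8, and differences are compressed towards both ends. Without detection calls no gene was taken as absent. Precision is limited by the number of arrays.

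The platform annotation gave 1 symbol to 23521 of the 41345 probe sets and several to 1814, which stayed unnamed like the 16010 it did not list. For 1082 genes with several probe sets the brightest was kept, which left 22180 genes. Entrez identifiers matched a GRCm38.p6 gene table for 23328 probe sets, with 0 symbols changed. A limma model (version 3.58.1, under R 4.3.3, eBayes moderation, no covariates, no filter, two-sided) was fitted over all genes, with Benjamini-Hochberg adjustment and a threshold of 0.05, and was checked on simulated data. All adjusted p-values come from it unless stated. Fold changes are Ad-Zip8 over Ad-null. Levels of different genes were not tested against each other.

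The members, gene lists, marker lists, motifs and tests were chosen with earlier results of these data known. Named were all members, Slc39a8, up to 4 called genes of each list by smallest adjusted p, and 3 genes nearest in pattern to the member with the smallest adjusted p in each direction. Predicted genes and small RNAs were left out of the last.

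Both groups carry replicate numbers 1 to 4. Deviations from group means correlated at 0.1077 to 0.3742 between same-numbered arrays and at -0.2711 to 0.1553 between others. Each same-numbered value was above 0.1, and samples were treated as paired by number in the block alternative. This pairing comes from the data and not from the labels. Alternatives were the replicate block, a variance trend, robust variance, array weights, median centring, repeated quantile normalization, leaving out dim genes, the mean over probe sets, testing all probe sets, and leaving out each array.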

Additional observations from a re-analysis of the deposited data

Results flagged for a closer look

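In a group of 4, a sample stood apart where its gap to the nearest other sample, divided by the group's range, exceeded Dixon's 95% critical value. Over 38 named genes and 76 groups, 4 such values were found. Chance gives about 1 in 20. None was in a MAP kinase phosphatase gene. Etv5 was at 8.51 in Ad-Zip8 replicate 1, above the 8.05 to 8.08 of the other Ad-Zip8 arrays. Arg2 was at 7.34 in the same array, above 6.40 to 6.56. Mef2c was at 7.17 in Ad-Zip8 replicate 2, below 7.29 to 7.31. Cd14 was at 5.12 in Ad-null replicate 3, below 5.47 to 5.51. All values are on the log2 scale. Leaving out each array in turn kept the calls of these 4 genes, with adjusted p up to 0.00333 for Etv5, 0.00408 for Arg2, 0.00327 for Mef2c and 0.00146 for Cd14.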

How the results depend on the processing

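The calls of Dusp4, Dusp6 and Dusp8 held in the 8 fits without 1 array and in 9 other settings, with log2 changes of 0.37 to 0.50, 0.69 to 1.41 and -0.74 to -0.66. The count of phosphatase genes that rose was 2 to 4 without 1 array and 2 to 4 in the other settings, and the count that fell was 1 without any 1 array. It was 2 with the replicate block, with the variance trend, with repeated quantile normalization and with dim genes left out, in each case through Dusp7 (adjusted p of 0.0357, 0.0358, 0.0463 and 0.0302). Dusp10 passed in 3 of the 9 other settings, the variance trend (0.0368), array weights (0.043) and dim genes left out (0.017). Its adjusted p rose to 0.122 when all probe sets were tested. Among the phosphatase genes the block changed no other call. Dusp1 had a change of -0.05 to 0.12 without 1 array, negative without Ad-Zip8 replicate 1 (-0.05) and without array 4 of the Ad-null group (-0.02), and passed in none. Over all genes, 924 to 1119 rose and 708 to 923 fell without 1 array, where 708 were lower without array 1 of the Ad-Zip8 group and 721 without array 1 of the Ad-null group. With the same-numbered pairs as the block, the sign-flip test of the differences between relatives passed 0 of 12 pairs, since 4 pairs cannot give a p below 0.125. Their leave-one-out values carried no test, and the 7 differences that passed kept their sign. Of the ERK feedback and output genes, 11 to 13 rose without 1 array and 11 to 14 in the other settings. These counts, and the values of named genes outside the family, were run under the alternatives after seeing the data. Dusp14, Map2k1 and Spag9 lost their calls with the replicate block, and Dusp5, Dusp14, Dusp15, Map2k1, Tab2, Spag9 and Tsc22d3 when all probe sets were tested. Centring arrays on their medians ended the call of Map2k1 (adjusted p = 0.0818), array weights that of Dusp14 (0.0531) and repeated quantile normalization that of Spag9 (0.0663).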
